A study of Mus musculus with 4 samples.

Results

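The extracellular matrix genes of the mouse testis described here are those whose symbol names a collagen chain (Col), a laminin chain (Lama, Lamb, Lamc), a matrix metalloproteinase (Mmp), a tissue inhibitor of metalloproteinases (Timp), a nidogen, fibronectin (Fn1), Sparc or a fibrillin (Fbn). Members were chosen by symbol alone, as the single gene symbol that the platform annotation gives a probe set. This gave 85 probe sets for 61 genes, of 12488 probe sets on the array, which name 8251 genes with a single symbol. They were 8 fibrillar collagens, 5 collagen IV chains, 18 other collagens, 9 laminin chains, 5 glycoproteins (Nid1, Nid2, Fn1, Sparc and Fbn2), 13 metalloproteinases and 3 inhibitors.

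The samples were testes of hypogonadal (hpg) mice, which lack gonadotropin-releasing hormone and so make little testosterone of their own. All samples come from animals first given testosterone propionate, an injected ester of testosterone, and then taken off it. The group titled T+T holds 3 arrays and the group titled T+O holds 1 array. T+T replicate 1 is described as treated again with testosterone propionate for 4 hours, while T+T replicates 2 and 3, like T+O replicate 1, carry descriptions that stop at the withdrawal after 2 weeks of treatment. For T+T replicate 1 the length of the first treatment is not stated. The arm of T+T replicates 2 and 3 therefore rests on their titles. The labels give no age, strain, dose or length of withdrawal, and do not say whether an array stands for 1 animal or a pool. Under the grouping by title, the p-values below rest on the spread between the 3 T+T arrays, because 1 T+O array adds none. The variance of each probe set is also drawn toward that of other probe sets of like intensity. Whether the spread is one between animals is not known.

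Collagens are rope-like helical proteins built from alpha chains. Fibrillar collagens form the tensile fibres of the interstitium, whereas collagen IV and the laminins each assemble into a sheet, and nidogens join the sheets into a basement membrane. In the testis a basement membrane surrounds every seminiferous tubule and is laid down by Sertoli cells inside and peritubular myoid cells outside, while vessels and interstitial cells have matrix of their own. Metalloproteinases cut matrix proteins, and the TIMPs bind and block them.

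Each probe set has 1 linear intensity per array, called its signal here. The deposited arrays had medians of 29.3, 25.4 and 48.3 for T+T replicates 1 to 3 and 37.5 for T+O replicate 1, so each was multiplied by a factor of 1.15, 1.33, 0.779 and 0.915 to a common trimmed mean. Of the control genes probed at both ends, Gapdh had a ratio of 3′ to 5′ signal of 0.886, 0.837 and 0.809 on the T+T arrays, against 1.20 on the T+O array, and Actb had 1.66, 1.40 and 1.17, against 1.53. The part of RNA quality in the differences below was not tested. Above a mean scaled signal of 22.7, 7453 probe sets were kept, among them 40 of the 85 matrix probe sets, for 34 of the 61 genes. A gene is represented by its brightest kept probe set, differences are on the scale of log2(signal + 10), and their intervals are 95% intervals from limma.

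None of the 40 matrix probe sets passed the adjusted threshold of 0.05 between T+T and T+O (limma, lowest adjusted p = 0.51), where 0.0268% of all probe sets kept did. At an unadjusted p under 0.05, limma gave 1 that was higher in T+T, a probe set of the inhibitor Timp2, and 0 that were lower, against 3.57% and 4.23% of all probe sets kept. On the scale of signal + 10, no matrix probe set lay at least 1.5-fold above T+O on all 3 T+T arrays. None lay at least 1.5-fold below, where 1.82% and 2.21% of all probe sets kept did. Each 1.5-fold threshold is taken on that scale unless another offset is named, and it gives smaller folds than the signals themselves. On the signals, a probe set each of Timp2 and Col12a1 lay at least 1.5-fold above T+O on all 3 T+T arrays. One of Lama5 lay at least 1.5-fold below. The share of all probe sets on the signals was not counted. The median log2 difference over the 34 genes was -0.016, beside 0.026 over all 7453 probe sets. Array by array, the median over the 34 genes was -0.031, -0.087 and 0.087 for T+T replicates 1, 2 and 3 minus T+O.

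**Figure D1:**
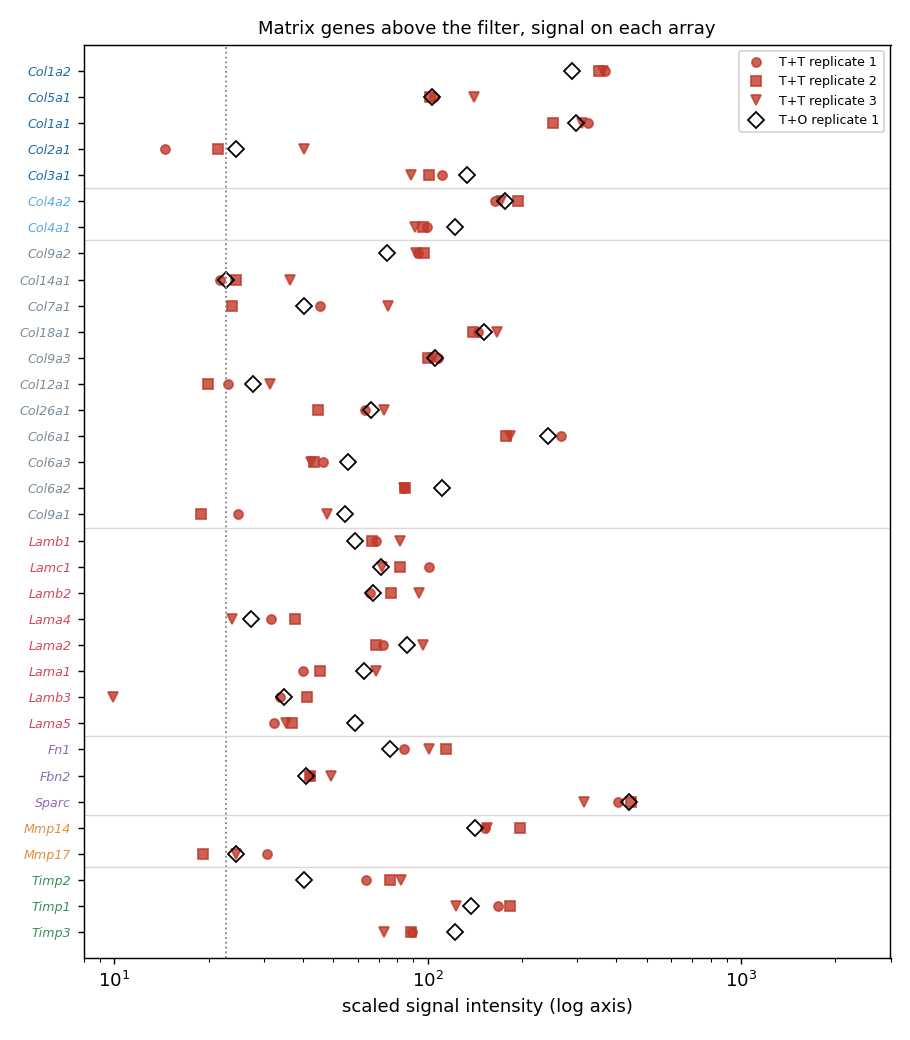
Scaled signal (log axis) of the 34 matrix genes above the filter on each array, with genes grouped by family and sorted by their difference. Filled red symbols are the 3 T+T arrays, the open diamond is the T+O array, and the dotted line is the filter level of 22.7. The T+O diamond lies outside the span of the T+T symbols for 15 of the 34 genes, below them for 8 (such as Timp2) and above them for 7 (such as Timp3). Over all probe sets kept, T+O lay below all 3 T+T arrays for 29.5% and above them for 23.7%.

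Whether the groups overlap can be read from the single arrays. All 3 T+T arrays lay above T+O for 9 of 40 matrix probe sets and below it for 8, that is 22.5% and 20% of them, where 29.5% and 23.7% of all probe sets kept did so. Both shares were near those of the whole array. The probe sets with T+T above T+O belonged to Timp2, Fn1, Mmp14, Lamb1, Lamc1, Col9a2, Fbn2 and 1 of the 2 kept probe sets each of Col12a1 and Col1a2. Those with T+T below T+O belonged to Timp3, Lama5, Col3a1, Col4a1, Col6a2, Col6a3, Col9a1 and 1 of the 2 of Col1a1.

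**Figure D2:**
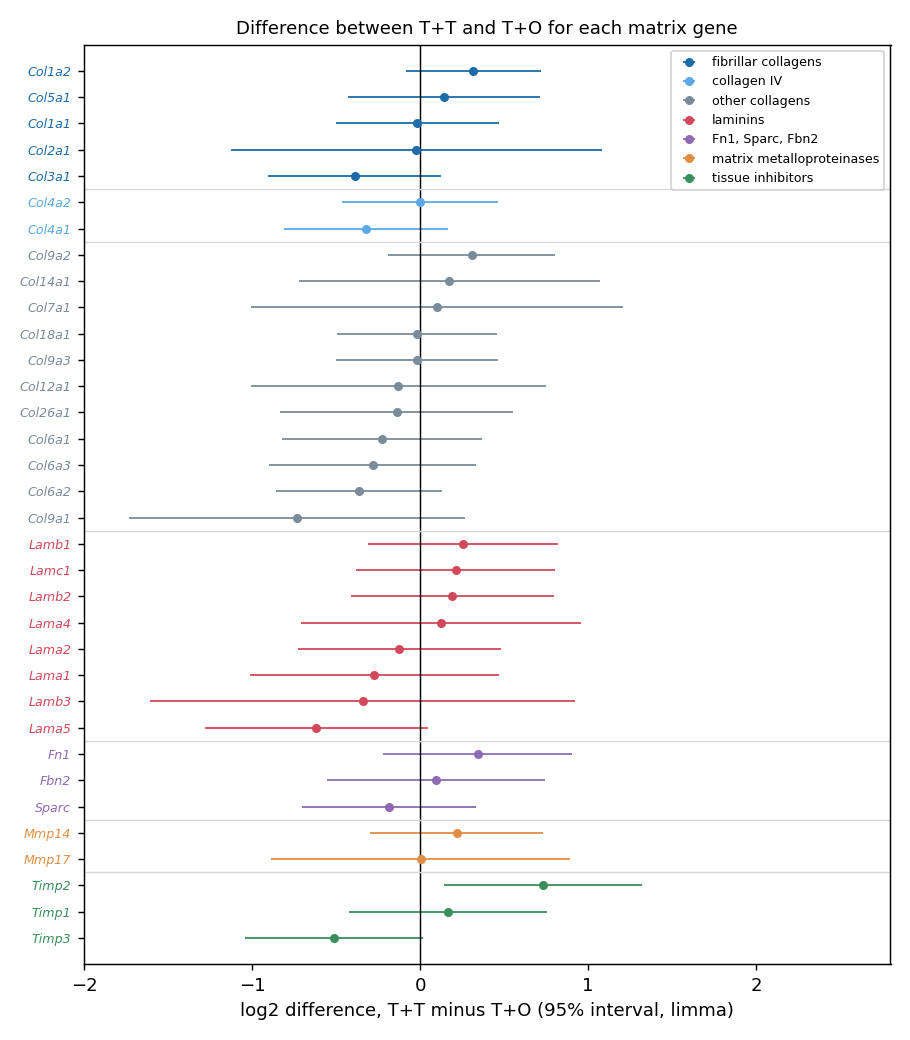
Log2 difference, T+T minus T+O, of each of the 34 matrix genes, with the 95% interval from limma and the family as colour. The intervals of 33 genes span 0, and only that of Timp2, 0.14 to 1.32, does not, without adjustment for the number of probe sets tested.

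The precision sets what these values can show. The half-width of the interval ran from 0.40 to 1.27 on the log2 scale over the 34 genes, with a median of 0.59. Differences smaller than that could not be told from 0 for a typical member, even without adjustment for the number of probe sets tested. The adjusted threshold asks for more: Timp2, at 0.73, did not pass it.

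Among the 34 genes above the filter, the inhibitors held the highest difference and one of the lowest. Their median was 0.17, which became 0.12, 0.058 and 0.33 without T+T replicate 1, 2 and 3 in turn. TIMP2, a secreted inhibitor that also takes part in the activation of MMP2 by the membrane protease MMP14, had signals of 63.4, 75.8 and 82.3 on the T+T arrays, against 40.2 on the T+O array. Every T+T array was higher. Its log2 difference was 0.73 (standard error 0.25; limma, adjusted p = 0.51), and over the settings that keep the grouping by title it ran from 0.53 to 0.82, with adjusted p between 0.32 and 0.84. The other 2 probe sets of Timp2 lay below the filter, with T+T signals of 6.90, 1.99 and 2.96 against 2.93 in T+O for one and 3.11, 6.63 and 2.88 against 1.46 for the other. Timp3, whose product binds to the matrix itself, had 89.0, 88.2 and 72.8 on the T+T arrays, against 123 in T+O. Every T+T array was lower. Its log2 difference was -0.51 (interval -1.04 to 0.018; limma, adjusted p = 0.67). Timp1, which encodes a soluble inhibitor, had 168, 183 and 123 in T+T, against 138 in T+O, and the groups overlapped because T+T replicate 3 was lower than T+O (log2 difference 0.17, interval -0.42 to 0.76). Being the middle one of the 3 inhibitors, Timp1 sets their median, so the same leave-one-out values are its own.

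Since Timp2 and Timp3 lay on opposite sides of T+O, their promoter windows are shown side by side, from RefSeq on build GRCm38.p6. Each window holds 300 bases around the start of the gene, given 5′ to 3′ on the strand of the gene, and capitals mark the GC box GGGCGG on either strand (reverse complement CCGCCC). The Timp2 window is chr11:118355362-118355661 on the minus strand, with 1 GC box, and the Timp3 window is chr10:86300162-86300461 on the plus strand, with 2.
Timp2: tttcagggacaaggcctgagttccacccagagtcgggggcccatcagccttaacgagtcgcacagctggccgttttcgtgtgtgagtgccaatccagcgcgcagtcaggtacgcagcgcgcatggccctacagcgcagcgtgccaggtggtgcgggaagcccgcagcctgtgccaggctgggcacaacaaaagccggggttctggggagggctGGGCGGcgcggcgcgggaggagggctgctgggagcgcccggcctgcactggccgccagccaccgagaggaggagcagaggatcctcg
Timp3: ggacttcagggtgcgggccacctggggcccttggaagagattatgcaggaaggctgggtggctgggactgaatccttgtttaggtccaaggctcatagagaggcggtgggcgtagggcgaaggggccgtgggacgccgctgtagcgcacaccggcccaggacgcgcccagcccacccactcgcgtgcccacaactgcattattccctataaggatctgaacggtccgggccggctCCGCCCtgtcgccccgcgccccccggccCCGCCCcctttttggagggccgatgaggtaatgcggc
A GC box was found in 23 of the 47 windows listed for 41 of the 61 matrix genes (48.9%), and in 35.7% of all 32851 promoter windows of the same length. The 6-base androgen receptor half-site AGAACA (reverse complement TGTTCT) was in neither the Timp2 nor the Timp3 window. It was found in 9 of the 47 member windows (19.1%), which belong to Col9a1, Lama2, Lamb3, Mmp7, Mmp10, Mmp11, Mmp12 and Sparc, and in 19% of all windows. The full element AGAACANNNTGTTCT was in 0 of the 47 and in 3 of all 32851. The half-site lies within the full element, so the counts overlap. The TATA box TATAAA (reverse complement TTTATA) was in 11 of the 47 member windows (23.4%), and in 13.6% of all windows.

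Most metalloproteinases were dim. Only 2 of 13 Mmp genes had a probe set above the filter, and the 14 probe sets below it had signals between 0.663 and 30.3. Mmp14, which encodes a protease held in the cell membrane, had 152, 197 and 155 on the T+T arrays, against 142 on the T+O array. All 3 T+T arrays were higher, T+T replicates 1 and 3 by less than the standard deviation of the T+T arrays, which was 24.9 (n = 3). The log2 difference was 0.22 (interval -0.30 to 0.73; limma, adjusted p = 0.88). Mmp17, which encodes a membrane protease anchored by a lipid, had 30.7, 19.2 and 24.5 in T+T, against 24.4 in T+O, with T+O inside the range of T+T. Both probe sets of the gelatinase Mmp2 lay below the filter, with 24.0, 19.9 and 14.5 in T+T against 17.3 in T+O, and 11.8, 12.9 and 29.1 against 11.5. The 2 probe sets of the other gelatinase, Mmp9, gave at most 5.45 on any array.

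Of the fibrillar collagens 5 of 8 genes were kept, and their median log2 difference was -0.015. Without T+T replicate 1 this median was 0.203, without T+T replicate 2 it was 0.094 and without T+T replicate 3 it was -0.053. Col1a1, which encodes the main chain of collagen I, had 326, 252 and 311 in T+T, against 298 in T+O. The T+O array lay inside the T+T range. The log2 difference was -0.015 with an interval from -0.50 to 0.47 for this probe set. A second Col1a1 probe set had 117, 71.8 and 98.9 in T+T, all below the 128 in T+O (log2 difference -0.41, interval -1.06 to 0.24). Col1a2, the partner chain, was represented by a probe set whose name marks that a rule of probe choice was dropped. It had 367, 353 and 364 in T+T, against 288 in T+O. All 3 T+T arrays lay above T+O and within 1.04 fold of each other (log2 difference 0.32, interval -0.086 to 0.72; limma, adjusted p = 0.73). The plain Col1a2 probe set had 146, 143 and 141 in T+T, against 143 in T+O, and its log2 difference was -0.0015, so the gap seen with the first did not appear with the second.

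Col3a1, whose product forms thin fibres around tubules and vessels, had 111, 101 and 88.7 on the T+T arrays, against 134 on the T+O array. Every T+T array was lower (log2 difference -0.39, interval -0.91 to 0.13; limma, adjusted p = 0.74). A dimmer Col3a1 probe set shared within a sequence family went the other way, with 26.3, 17.4 and 29.8 against 15.9. The dimmest Col3a1 probe set, also below the filter, was lower on every T+T array, with 6.67, 5.97 and 4.91 against 8.32. Col5a1, a chain of the collagen that helps to start fibres, had 105, 102 and 141 in T+T, against 103 in T+O, and T+T replicate 3 alone stood apart. Col2a1, the cartilage collagen, had 14.5, 21.5 and 40.4 in T+T, against 24.4 in T+O, a spread of 2.79 fold within T+T. Col5a2, the neighbour of Col3a1 on the genome, lay below the filter with 25.3, 23.9 and 18.5 in T+T against 12.1 in T+O.

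Collagen IV is the network of the basement membrane, and in most tissues it is built from the products of Col4a1 and Col4a2. Col4a1 had 99.6, 96.6 and 91.2 on the T+T arrays, against 122 on the T+O array. All 3 T+T arrays were lower and within 1.09 fold of each other (log2 difference -0.32, interval -0.81 to 0.16; limma, adjusted p = 0.78). Col4a2 had 164, 194 and 171 in T+T, against 176 in T+O. The T+O array lay between the T+T arrays, and the log2 difference was -0.0011 (interval -0.46 to 0.46). The difference between both genes in this respect was not tested. Col4a3, Col4a4 and Col4a5, which build the collagen IV of specialised membranes, stayed below the filter on signals between 2.52 and 16.9.

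Col4a1 and Col4a2 lie next to each other and are read in opposite directions from starts that are close together, so their promoter windows overlap. Both windows are shown because the 2 genes share this stretch and were measured by separate probe sets. The Col4a1 window is chr8:11312777-11313076 on the minus strand and the Col4a2 window is chr8:11312555-11312854 on the plus strand, from RefSeq on GRCm38.p6. Capitals mark the 78 bases that lie in both windows, which read as the reverse complement of each other.
Col4a1: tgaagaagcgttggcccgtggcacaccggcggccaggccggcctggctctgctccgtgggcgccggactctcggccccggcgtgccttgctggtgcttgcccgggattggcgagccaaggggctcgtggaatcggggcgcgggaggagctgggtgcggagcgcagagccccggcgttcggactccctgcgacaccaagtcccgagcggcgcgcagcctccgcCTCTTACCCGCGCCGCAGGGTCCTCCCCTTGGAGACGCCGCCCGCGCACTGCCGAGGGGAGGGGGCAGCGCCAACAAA
Col4a2: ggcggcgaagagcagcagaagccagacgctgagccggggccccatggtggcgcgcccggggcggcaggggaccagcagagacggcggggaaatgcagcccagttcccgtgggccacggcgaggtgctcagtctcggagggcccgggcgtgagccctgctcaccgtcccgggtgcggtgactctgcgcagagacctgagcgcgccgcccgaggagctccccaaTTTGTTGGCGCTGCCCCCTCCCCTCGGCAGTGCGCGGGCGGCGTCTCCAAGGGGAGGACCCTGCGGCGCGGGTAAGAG
The Col4a1 window held 1 GC box and the Col4a2 window 3, and neither held the androgen receptor half-site.

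The other collagens had 11 of 18 genes above the filter, and their median log2 difference was -0.13, with 3 genes above 0 and 8 below. Without T+T replicate 2 this median was 0.0056, and without T+T replicate 3 it was -0.22. The chains of collagen VI, which forms beaded filaments around cells, all had a negative difference. Col6a2 had 83.8, 84.4 and 84.1 in T+T, against 111 in T+O, the tightest T+T group of the named genes at 1.01 fold from lowest to highest. Its log2 difference was -0.36 with an interval from -0.86 to 0.13 (limma, adjusted p = 0.74). Col6a3 had 46.2, 43.4 and 42.5 in T+T, against 55.7 in T+O. Col6a1, the genomic neighbour of Col6a2, had 265, 177 and 184 in T+T, against 242 in T+O, so that T+T replicate 1 lay above T+O and the other T+T arrays below.

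Collagen IX coats cartilage fibres, and its chains are also measured in other tissues. Col9a1 had the lowest difference of the 34 genes, with 24.8, 18.8 and 47.8 in T+T, against 54.4 in T+O. T+T replicate 3 was close to T+O and the other 2 were lower. The log2 difference was -0.73 (interval -1.73 to 0.27; limma, adjusted p = 0.74), and without T+T replicate 3 it was -1.02. Col9a2 had 92.9, 97.5 and 92.0 in T+T, against 74.1 in T+O, higher on every T+T array (log2 difference 0.31, interval -0.19 to 0.81). Col9a3 had 108, 101 and 104 in T+T, against 106 in T+O, with no visible gap. The chains of this collagen thus had differences on both sides of 0.

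Col18a1, a basement membrane collagen from whose end endostatin is cut, had 144, 139 and 166 in T+T, against 151 in T+O (log2 difference -0.016, interval -0.49 to 0.46). Its second kept probe set spread widely within T+T, at 6.10, 40.7 and 24.6, against 23.3 in T+O. Col14a1, which binds to fibril surfaces, had 21.7, 24.4 and 36.4 in T+T, against 22.8 in T+O. The remaining kept genes, Col7a1, Col12a1 and Col26a1, had log2 differences between -0.14 and 0.10. For Col12a1 the second probe set had 24.4, 33.7 and 21.4 in T+T, against 12.5 in T+O, a log2 difference of 0.68 (interval -0.25 to 1.61), while the probe set that represents the gene was at -0.13.

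Of the laminin chains, which pair as alpha, beta and gamma in 1 molecule, 8 of 9 genes were kept and split evenly, with 4 above 0, 4 below and a median of 0.0010. Lama5, an alpha chain of many adult basement membranes, had 32.3, 37.0 and 35.2 on the T+T arrays, against 58.7 on the T+O array. Every T+T array was lower, and T+T was narrow at 1.15 fold. The log2 difference was -0.62 (interval -1.28 to 0.049; limma, adjusted p = 0.68), and it ran from -0.71 to -0.42 over the settings that keep the grouping by title, with adjusted p from 0.38 to 0.96. A second Lama5 probe set, shared within a sequence family, had 35.8, 12.3 and 23.6 in T+T, against 31.3 in T+O, with the groups overlapping.

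Lama1, the alpha chain of embryonic and some adult epithelia, had 40.03, 45.2 and 68.3 in T+T, against 62.5 in T+O. Its T+T replicate 3 lay above T+O and the others below (log2 difference -0.27, interval -1.01 to 0.47). Lamb1, a widely used beta chain, had 68.3, 66.5 and 81.4 in T+T, against 58.5 in T+O, on a family-shared probe set, and all 3 were higher. The plain Lamb1 probe set lay below the filter and went the other way, with 22.2, 14.3 and 13.4 against 23.8. Lamb2, a beta chain of vessels and synapses, had 65.3, 76.2 and 93.5 in T+T, against 66.7 in T+O. Lamc1, the gamma chain of most laminins, had 101, 81.7 and 71.3 in T+T, against 71.0 in T+O, also on a family-shared probe set. For Lamb1, Lamb2 and Lamc1 the log2 differences were 0.26, 0.19 and 0.21, each with an interval that spans 0. Leaving out T+T replicate 3 gave 0.071 for Lamb2, and leaving out T+T replicate 1 gave 0.30 for Lamb2 and 0.093 for Lamc1. The plain Lamc1 probe set, below the filter, had 15.3, 10.6 and 19.6 in T+T, against 13.7 in T+O, with the groups overlapping. Lama2, the alpha chain of muscle, had 72.0, 68.2 and 96.5 in T+T, against 85.9 in T+O, and Lama4, an alpha chain of vessels, had 31.6, 37.8 and 23.7, against 27.3, with T+O inside the T+T range for both. Lamb3, an epithelial beta chain, had 33.7, 41.1 and 9.89 in T+T, against 34.8 in T+O, and its log2 difference of -0.34 became 0.076 without T+T replicate 3.

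Among the glycoproteins, Fn1, the gene of fibronectin that links cells to collagen, had 84.1, 114 and 101 in T+T, against 75.9 in T+O. All 3 T+T arrays were higher (log2 difference 0.34, interval -0.22 to 0.90; limma, adjusted p = 0.80). Sparc, which encodes a collagen-binding calcium protein, had 406, 446 and 316 in T+T, against 439 in T+O, with T+T replicate 3 the lowest (log2 difference -0.18, interval -0.70 to 0.34). Fbn2, a microfibril gene, had 42.2, 42.1 and 49.3 in T+T, against 41.0 in T+O. Nid1 and Nid2, the nidogens, lay below the filter: Nid1 had 2.65, 10.9 and 9.19 in T+T, against 6.40 in T+O, and Nid2 had 8.74, 16.3 and 10.4, against 8.14.

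**Figure D3:**
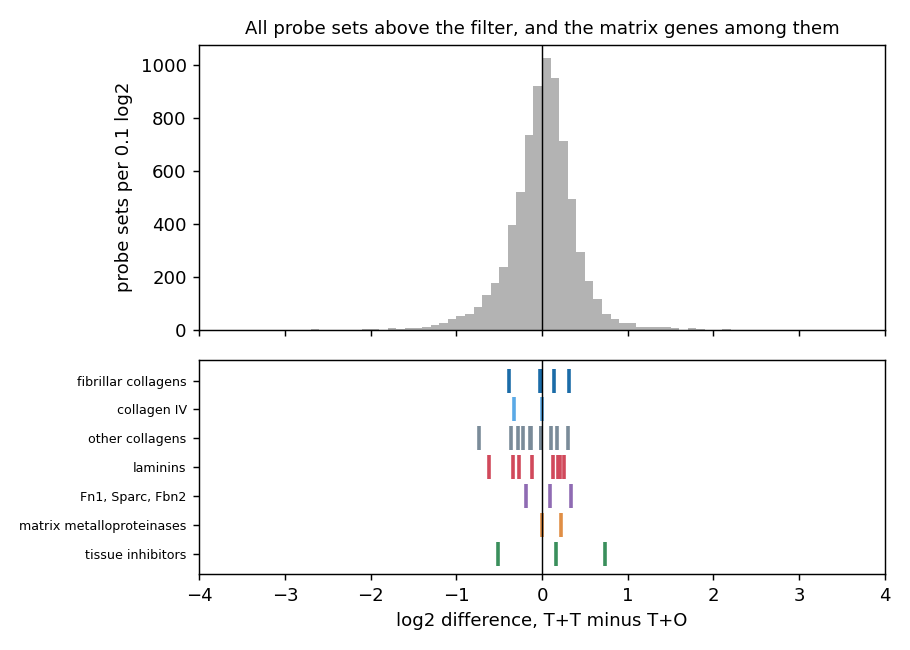
Above, the log2 difference T+T minus T+O of all 7453 probe sets kept, in bins of 0.1. Below, 1 tick per matrix gene by family on the same axis. The ticks lie between -0.73 for Col9a1 and 0.73 for Timp2, and Timp2 sits at the 97.4th percentile of all probe sets kept.

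Several genes were measured more than once. Of 19 genes with several probe sets, 6 had more than 1 above the filter, and in 4 of these (Col1a1, Col5a1, Col18a1 and Lama5) the kept probe sets had the same sign. In Col12a1 (-0.13 and 0.68) and Col1a2 (0.32 and -0.0015) they differed in sign.

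**Figure D4:**
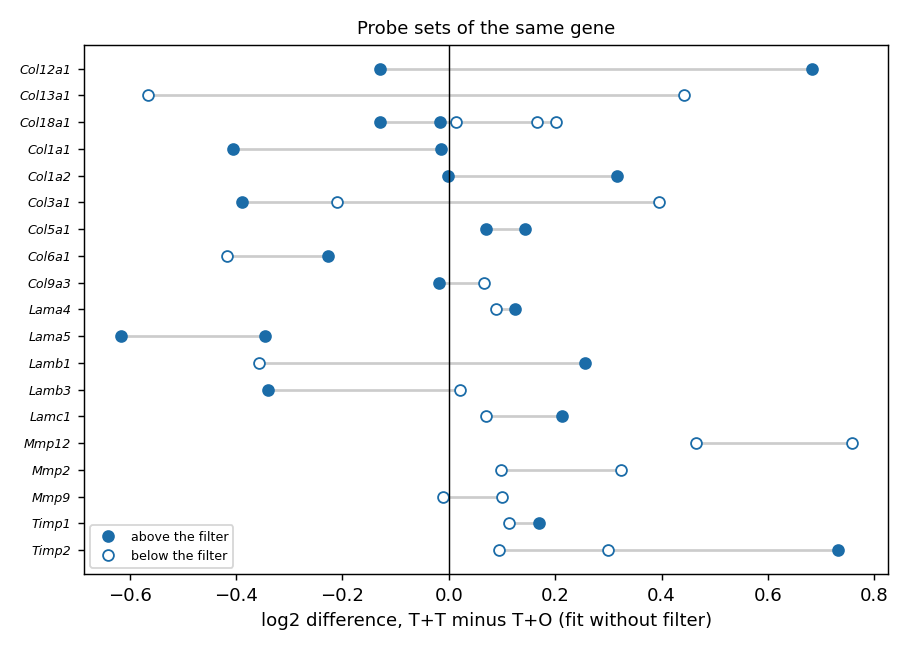
Log2 difference, T+T minus T+O, for every probe set of the 19 matrix genes with more than 1, from a fit without the filter. Filled points passed the filter and open points did not. The points of Col12a1 (-0.13 and 0.68), Col13a1 (-0.56 and 0.44) and Col3a1 (lowest -0.39, highest 0.40) lie on both sides of 0. So do those of Col18a1, Col1a2, Col9a3, Lamb1, Lamb3 and Mmp9, while the points of each other gene share a sign.

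The 45 matrix probe sets below the filter covered 27 genes that had no kept probe set and further probe sets of kept genes. All 3 T+T arrays lay above T+O for 15 of them (33.3%) and below it for 11 (24.4%), close to the 29.9% and 22.4% of all 4969 probe sets below the filter. Lama3, an epithelial laminin chain, had 19.0, 15.8 and 18.1 in T+T, against 7.04 in T+O. With no filter, it was the only matrix probe set at least 1.5-fold above T+O on all 3 T+T arrays on the scale of signal + 10. On the signals themselves it was not alone, and the first Mmp12 probe set given next also passed. Both probe sets of the macrophage elastase Mmp12 were higher on every T+T array, with 8.97, 13.7 and 7.40 against 1.74 and with 14.0, 21.4 and 18.2 against 10.1. Col8a1, a vessel collagen, was lower on every T+T array, with 6.21, 16.5 and 26.3 against 37.9. Col15a1, which lies beneath basement membranes, had 15.4, 22.6 and 23.5 against 28.9. These 4 genes were chosen after their values were seen, and without detection calls it cannot be said which of such signals exceed background.

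T+T replicate 1 is the only array whose description states a second treatment. Between it and T+O replicate 1, with no replicate, folds were again taken on signal + 10. Of 40 matrix probe sets, 1 was at least 1.5-fold higher in T+T replicate 1 (the second Col12a1 probe set). At least 1.5-fold lower were 3 (Col9a1, Lama5 and the second kept Col18a1 probe set). That is 2.5% and 7.5%, beside 6.83% and 11% of all probe sets kept. On the signals themselves Timp2 was also at least 1.5-fold higher, and Lama1 and Col2a1 were also at least 1.5-fold lower. The highest log2 differences of the 34 genes for this pair were 0.55 for Timp2, 0.45 for Lamc1 and 0.34 for Col1a2, and the lowest were -0.89 for Col9a1, -0.70 for Lama5 and -0.53 for Lama1.

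If the descriptions of T+T replicates 2 and 3 are followed in place of their titles, T+T replicate 1 is set against the other 3 arrays. None of the 40 matrix probe sets passed then (limma, lowest adjusted p = 0.92), beside 0% of all probe sets kept, and 1 had an unadjusted p under 0.05, beside 5.1% of all. None lay at least 1.5-fold above all 3 other arrays, beside 0.657%, and 1, the second kept Col18a1 probe set, lay at least 1.5-fold below, beside 2.09%. Under this reading Timp2 had a log2 difference of -0.0031 and Timp3 of -0.050. The lowest of the 34 genes were Col2a1 at -0.63, Col9a1 at -0.45 and Lama1 at -0.44, and the highest were Col6a1 at 0.40, Lamc1 at 0.39 and Mmp17 at 0.32. Lama5 was at -0.32, while its second kept probe set was at 0.54. Both readings share arrays, so they are not independent of each other.

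The wider matrix machinery was read from lists of other matrix genes, none of whose members passed in either direction (limma, adjusted p at least 0.56). Of 18 collagen processing genes 11 were kept, with a median log2 difference of 0.089. The highest was P4hb, a subunit of prolyl hydroxylase, with 873, 772 and 610.4 in T+T against 633 in T+O, so the groups overlapped. As for Col1a2, the name of its probe set marks that a rule of probe choice was dropped. The lowest was Plod3, a lysyl hydroxylase, with 45.7, 55.6 and 56.6 in T+T against 71.7 in T+O. Of 28 proteoglycan and glycoprotein genes 13 were kept, with a median of -0.013. They ran from Postn, which encodes periostin, at 10.1, 17.9 and 24.1 in T+T against 43.1 in T+O, to Hspg2, which encodes perlecan, at 29.0, 64.0 and 31.6 against 33.3.

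Of 18 integrins and other matrix receptors 10 were kept, with a median of -0.10. The integrin chain Itgav had 50.03, 64.1 and 96.1 in T+T, against 98.4 in T+O, and Itga3 had 38.3, 36.0 and 64.8, against 31.6. Of 22 genes of the plasminogen system and other proteases 10 were kept, with a median of 0.071. The lysosomal protease gene Ctsb had 139, 203 and 186 in T+T, against 105 in T+O, all higher (log2 difference 0.68), and the sheddase gene Adam10 had 16.9, 22.3 and 32.5, against 36.4, all lower (log2 difference -0.48). The median over all probe sets kept was 0.026.

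The tissue was checked by markers of the cells that lay down or remodel matrix, given as the summed signal of the kept markers. All 7 peritubular myoid and smooth muscle markers were kept, with sums of 1894, 2009 and 1703 on the T+T arrays, against 1590.5 on the T+O array. The largest part of the myoid sum is Actg2, on a family-shared probe set. Its signals were 1024, 1137 and 792 in T+T, against 846 in T+O, with the groups overlapping. All 6 Sertoli markers with a named probe set were kept, with sums of 1926, 2236 and 2291 in T+T, against 1969 in T+O. Most of the Sertoli sum is Clu, with 1566, 1874 and 1737 in T+T against 1589 in T+O. The dimmer Kitl was lower on all 3 T+T arrays, with 14.4, 12.6 and 17.4 against 49.9. Gata4 and Rhox5 were higher on all 3, and for Cst9 and Wt1 the groups overlapped. Of 6 endothelial markers 3 were kept, while Cdh5, Kdr and Tek lay below the filter, and the sums were 271, 195 and 233 in T+T against 179 in T+O. Of 7 macrophage markers 6 were kept, at 318 to 396 in T+T against 263 in T+O, and of 4 fibroblast markers 2 were kept, at 381 to 543 against 569. The 5 Leydig markers with a named probe set gave 301 to 390.0 against 346, and the 5 spermatid markers 19672 to 24920 against 18794. Most of the spermatid sum is Tnp2 and Prm1, the latter on a family-shared probe set. Tnp2 had 10600, 10737 and 8456 in T+T against 7942 in T+O. Prm1 had 9392, 10108 and 7980 against 7912, so T+T replicate 3 was close to T+O. In every T+T array the myoid, endothelial, macrophage and spermatid sums thus exceeded those of T+O, and the fibroblast sum was below it. Not every marker followed its sum. Markers higher on all 3 T+T arrays were 5 of the 7 myoid and 2 of the 3 endothelial. So were 3 of the 6 macrophage and 4 of the 5 spermatid markers. C1qb (macrophage) and Acrv1 (spermatid) were lower on all 3. Of all probe sets kept, 29.5% were higher than T+O on all 3 T+T arrays and 23.7% were lower. Such a separation is thus common on these arrays. Whether the marker counts depart from these shares was not tested. The fibroblast sum is mostly Dcn, the gene of decorin, which is also on the proteoglycan list and had 263, 346 and 434 in T+T, against 458 in T+O. The other fibroblast marker kept, Pdgfra, had 118, 86.2 and 109 in T+T, against 111 in T+O, with the groups overlapping. In whole testis RNA, fewer cells of a type and less RNA per cell cannot be told apart, and the part of these shifts in the matrix values was not tested.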

How the data were processed

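Total RNA of testes was measured on 4 one-colour arrays, 1 per sample, grouped by title (3 T+T, 1 T+O); T+T replicate 3 was numbered in accession order. The deposited values are linear signal intensities, 1 for each probe set of an array. Which software made them was not given in the sources used here, and no detection calls were used. The number of arrays limits the precision.

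The 66 control probe sets were left out, arrays were scaled to the mean of their trimmed means (2% removed at each end), an offset of 10 (the 25th percentile) was added and log2 taken. Probe sets with a mean above the 40th percentile were kept. The fit used limma 3.58.1 in R 4.3.3 (lmFit, eBayes with an intensity trend, two-sided, 2 residual degrees of freedom) on all 7453 probe sets kept, with Benjamini-Hochberg adjustment. For T+O, with 1 array, the spread of T+T was assumed. The procedure was also run on simulated data that gave T+O the same spread as T+T, so that run cannot check this assumption.

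Symbols came from the platform annotation, and all 85 matched the RefSeq symbol of their gene ID (GRCm38.p6). Of the other probe sets, 396 carry several symbols and 1193 are unnamed here. The file names no build, so the only coordinates given are those of the RefSeq promoter windows. Values per array are given for the 2 highest and 2 lowest genes of each family, a few fixed genes (Fbn1 has no named probe set here), and any past a threshold; other genes named were chosen after their values were seen. Members and lists were chosen with earlier results of these data known. Alternatives changed scaling, offset, filter, trend, grouping, gene representation and the T+T arrays included.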

Additional observations from a re-analysis of the deposited data

How the results depend on the processing

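No paired analysis was possible because only 1 T+O array exists, so no numbers match. The count of 0 matrix probe sets past the adjusted threshold held under all 11 alternatives run, whose smallest limma adjusted p for a matrix probe set was 0.27 to 0.92. The counts of 0 at least 1.5-fold above and 0 below T+O became 2 (Timp2, Col12a1) and 1 (Lama5) for a 10th percentile offset. Above T+O, 1 (Lama3) came with no filter, where more probe sets are tested. Leaving out 1 T+T array gave 0 to 1 above (Timp2 without replicate 1, Col12a1 without replicate 3) and 0 to 1 below (Lama5 without replicate 2, Col9a1 without replicate 3), where fewer arrays must agree in side. Under the withdrawn reading, which goes by the descriptions of T+T replicates 2 and 3, 1 (Col18a1) was below. For T+T replicate 1 against T+O replicate 1, the counts of 1 above and 3 below became 0 and 0 (50th percentile offset), 2 and 5 (10th percentile offset), 6 and 7 (unfiltered), or 0 and 0 (60th percentile filter).

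Of the family medians, collagen IV became -0.32 with no filter and -0.084 under the withdrawn reading, laminins 0.12 with no filter and 0.202 at the 60th percentile, metalloproteinases 0.22 at the 60th percentile (1 gene), the glycoproteins -0.048 and the inhibitors -0.0031 under the withdrawn reading, and the fibrillar collagens 0.188 with no filter. Leaving out 1 T+T array gave -0.053 to 0.203 for the fibrillar collagens, -0.22 to 0.0056 for the other collagens, -0.015 to 0.074 for the laminins, 0.033 to 0.13 for the glycoproteins and 0.058 to 0.33 for the inhibitors. A filter changes which genes are in a median. For the named genes, 226 values kept their sign and 26 turned. Under the withdrawn reading the sign turned for Col14a1 (-0.24), Col1a1 (0.18), Col3a1 (0.063), Col5a1 (-0.11), Fbn2 (-0.048), Fn1 (-0.17), Lamb2 (-0.23), Lamb3 (0.29), Mmp14 (-0.096), Sparc (0.034) and Timp2 (-0.0031), because other arrays are compared. Quantile scaling turned Col18a1 (0.0052), Col4a2 (0.0061) and Mmp17 (-0.0102), median scaling Mmp17 (-0.018), the 10th percentile offset Mmp17 (-0.00061) and the 50th Col2a1 (0.0026), all of which lie near 0. Leaving out 1 T+T array gave -0.087 to 0.031 for Col18a1, -0.086 to 0.094 for Col1a1, -0.31 to 0.21 for Col2a1, -0.068 to 0.047 for Col4a2, -0.60 to 0.076 for Lamb3 and -0.12 to 0.12 for Mmp17. Without a turn of sign, it gave 0.0121 to 0.29 for Col14a1, 0.0050 to 0.22 for Col5a1, 0.033 to 0.13 for Fbn2, 0.11 to 0.28 for Mmp14, -0.46 to -0.14 for Lama1 and -0.29 to -0.046 for Sparc. The cause was not tested. Probe sets near the offset of 10 give folds that depend on it.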
